A study of Mus musculus with 8 samples.

Results

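Interferon gamma (IFNg) was compared with no treatment in mouse bone marrow-derived macrophages, across every gene whose quantification had the status OK in both libraries. These were 36470 of the 36806 genes listed. Of them, 12813 reached 1 FPKM in at least 1 of the libraries and were compared. FPKM is the number of fragments assigned to a gene, scaled to transcript length and to library size. The macrophages came from C57BL/6 marrow grown in medium conditioned by L929, a fibroblast line that secretes the growth factor CSF1, and were used on day 7 of differentiation. 1 culture was left untreated and 1 received IFNg at 100 ng/ml for 4 h. Another 6 cultures received a different agent for 4 h and serve below only to place the IFNg values. They were given IL4, TNFa or IL1b at 10 ng/ml, TGFb1 or the lipopeptide MALP2 at 1 ng/ml, or CpG DNA at 100 nM. All 8 libraries were made from poly(A) RNA, and the labels give the same strain and culture for all of them. With 1 library to a group, the differences below have no replicates behind them and were not tested between conditions.

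IFNg is secreted mainly by T cells and NK cells. It binds a receptor built from Ifngr1 and Ifngr2, whose kinases are Jak1 and Jak2. The signal reaches gamma-activated sites (GAS) near target genes, and interferon regulatory factors such as Irf1 then act on interferon-stimulated response elements (ISRE). In macrophages the cytokine is known for raising GTPases that attack vacuoles holding pathogens, antigen presentation, and chemokines that attract activated T cells.

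Markers of the labelled cell were present. The 9 macrophage genes that could be read in every library, among them Csf1r, Adgre1, Cd68 and Tyrobp, were all above 1 FPKM in both libraries, and their summed level was 7854 FPKM untreated and 9354 FPKM after IFNg. Lyz2, the lysozyme of macrophages, was listed at 0 in the untreated library under a status for loci with too many reads, so its value there is a failed estimate. The genes that mark IFNg-activated macrophages, Cxcl9, Gbp2 and Iigp1, summed to 23.5 FPKM untreated and 5208 FPKM after IFNg, with 8.08 to 72.4 FPKM across the other 6 libraries. The deposited tables hold no read counts. Genes whose upper bound is 3 times their FPKM were taken to hold a single read. They implied about 66.6 M mapped fragments in the untreated library and 32.5 M in the IFNg library. On that reading, low values are less precise in the IFNg library. The summed FPKM of 18 stromal genes was 117 untreated, 258 after IFNg and 124 to 135 in the other 6 libraries, which sets the IFNg library apart. Of the 15 stromal genes compared, Sparc (26.5 FPKM untreated and 56.7 FPKM after IFNg) and Col1a2 (21.9 and 46.5 FPKM) were higher by the criterion given below, 7 passed 2-fold alone, and the median log2 change was 1.00. Above 10 FPKM were also Bgn (26.1 and 55.3 FPKM), Col1a1 (14.3 and 29.6 FPKM), Acta2 (8.2 and 22.2 FPKM) and Tagln (5.73 and 12.95 FPKM). In bulk RNA, more cells of a type and more RNA per cell cannot be told apart. The part of stromal RNA in the results below was not tested, and with 1 library a side neither could be left out.

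Promoter sequences are shown first because IFNg and the interferon regulatory factors are known to act through elements near target genes. The marked stretches are matches of letters, and whether any factor acts on them was not tested. The 8 genes were picked among the leading genes to show each motif and none. Each line gives the 250 bases before the annotated start in RefSeq (GRCm38.p6), in the direction of the gene. Their levels are given with their families below.

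Irf1, Icam1 and Serpina3g hold a match to the GAS letters TTCNNNGAA, printed in capitals. The windows lie at chr11:53769764-53770013, plus strand for Irf1, chr9:21015690-21015939, plus strand for Icam1 and chr12:104235897-104236146, plus strand for Serpina3g.
Irf1: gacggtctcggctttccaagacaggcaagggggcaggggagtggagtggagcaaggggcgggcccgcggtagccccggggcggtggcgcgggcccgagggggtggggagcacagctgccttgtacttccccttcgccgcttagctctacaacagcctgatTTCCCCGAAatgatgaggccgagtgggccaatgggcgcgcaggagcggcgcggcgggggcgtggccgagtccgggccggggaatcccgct
Icam1: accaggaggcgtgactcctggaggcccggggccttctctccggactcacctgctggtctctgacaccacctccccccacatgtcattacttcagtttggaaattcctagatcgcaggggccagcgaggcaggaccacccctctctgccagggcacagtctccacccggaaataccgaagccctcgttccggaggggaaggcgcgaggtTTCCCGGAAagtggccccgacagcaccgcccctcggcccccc
Serpina3g: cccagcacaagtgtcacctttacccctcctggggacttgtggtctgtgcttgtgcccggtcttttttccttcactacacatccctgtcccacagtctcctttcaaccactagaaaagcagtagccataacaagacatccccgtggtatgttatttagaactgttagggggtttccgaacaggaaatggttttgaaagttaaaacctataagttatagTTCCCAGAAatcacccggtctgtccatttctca

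Gbp2, Cxcl10 and Socs1 hold a match to the ISRE core GAAA NN GAAA (NN being any pair of bases) on either strand, again in capitals, and in Socs1 a pair of matches overlap. The windows lie at chr3:142620413-142620662, plus strand for Gbp2, chr5:92348890-92349139, minus strand for Cxcl10 and chr16:10785537-10785786, minus strand for Socs1.
Gbp2: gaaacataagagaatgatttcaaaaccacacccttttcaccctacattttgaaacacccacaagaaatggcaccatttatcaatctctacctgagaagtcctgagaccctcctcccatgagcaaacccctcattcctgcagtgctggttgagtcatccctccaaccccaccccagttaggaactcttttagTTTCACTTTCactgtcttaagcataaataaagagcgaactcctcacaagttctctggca
Cxcl10: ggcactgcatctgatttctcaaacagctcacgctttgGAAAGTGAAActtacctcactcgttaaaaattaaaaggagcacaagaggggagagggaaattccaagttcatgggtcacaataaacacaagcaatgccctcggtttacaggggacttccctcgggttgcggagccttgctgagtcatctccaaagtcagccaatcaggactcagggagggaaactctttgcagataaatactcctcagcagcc
Socs1: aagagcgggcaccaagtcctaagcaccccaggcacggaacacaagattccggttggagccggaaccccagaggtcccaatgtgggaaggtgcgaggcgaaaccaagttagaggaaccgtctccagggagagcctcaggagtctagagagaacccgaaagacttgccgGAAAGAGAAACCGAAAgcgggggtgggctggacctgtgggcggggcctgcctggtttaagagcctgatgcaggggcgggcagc

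Tgtp2 holds both letters side by side, and Cxcl9, the gene with the highest change, holds no match in this window. The windows lie at chr11:49064213-49064462, minus strand for Tgtp2 and chr5:92328080-92328329, minus strand for Cxcl9.
Tgtp2: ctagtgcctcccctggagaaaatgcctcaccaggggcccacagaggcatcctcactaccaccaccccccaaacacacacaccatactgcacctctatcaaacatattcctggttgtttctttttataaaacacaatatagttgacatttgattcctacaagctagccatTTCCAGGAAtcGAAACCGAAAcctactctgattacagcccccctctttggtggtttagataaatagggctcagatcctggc
Cxcl9: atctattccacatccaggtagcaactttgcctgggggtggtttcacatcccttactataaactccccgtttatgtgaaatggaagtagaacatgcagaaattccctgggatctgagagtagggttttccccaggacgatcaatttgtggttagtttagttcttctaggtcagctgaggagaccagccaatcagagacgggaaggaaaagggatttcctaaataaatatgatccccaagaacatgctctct

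Counted from the annotated start, the GAS match ends 82 bases upstream in Irf1, 34 in Icam1, 25 in Serpina3g and 73 in Tgtp2. The ISRE match ends 50 bases upstream in Gbp2, 204 in Cxcl10, 61 in Tgtp2, and 74 and 68 in Socs1. No match says only that these letters are absent from this window.

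A gene is called higher or lower here when FPKM + 1 differed at least 2-fold, a log2 change of 1 or more in size, and the deposited confidence bounds of both FPKM values did not overlap. The bounds are taken to span 2 SD to either side of each FPKM. This is an assumption, and reading an upper bound of 3 times the FPKM as a single read rests on it too. They cover error within a library only. By this criterion 781 genes (6.1% of those compared) were higher after IFNg and 870 (6.79%) were lower. The median log2 change over all compared genes was -0.11. The higher genes went further: 378 of them (2.95%) reached 4-fold and 76 (0.593%) reached 16-fold, against 244 (1.9%) and 10 (0.078%) of the lower genes. All folds here are of FPKM + 1, which understates the change of genes near 0. For a lower gene the fold cannot exceed its untreated FPKM + 1, which limits how many could reach 16-fold. The median higher gene stood at 5.74 FPKM untreated and 36.9 FPKM after IFNg, and the median lower gene at 12.3 and 2.88 FPKM. Higher genes held 3.48% of the FPKM of protein-coding genes untreated and 17.4% after IFNg. A change of 2-fold alone was passed by 1373 genes upward (10.7%) and 1623 downward (12.7%), of which 592 and 753 had overlapping bounds.

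The other 6 stimulated libraries place these differences. Of the 12704 genes with a value in all 8 libraries, 264 (2.08%) were higher and also at least 2-fold above every one of the other 7 libraries, which is 33.8% of the 781 higher genes. Of the 76 genes at least 16-fold higher, 48 met this stricter mark. In contrast 21 genes (0.165%) were lower and at least 2-fold below every other library. With a pseudocount of 0.1 FPKM in place of 1, 292 genes stood above and 70 below every other library by this mark. Against the median of the other 6 stimulated libraries, a reference chosen after seeing the data, 432 of the 781 higher genes (55.3%, or 3.4% of all genes with that median) were still at least 2-fold above, whereas 116 of the 870 lower genes (13.3%, or 0.913%) were still at least 2-fold below. The other lower genes with that median lay less than 2-fold below the other stimulated libraries, or above them. With 1 untreated library, its own deviation and an effect of any stimulation cannot be told apart.

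**Figure D1:**
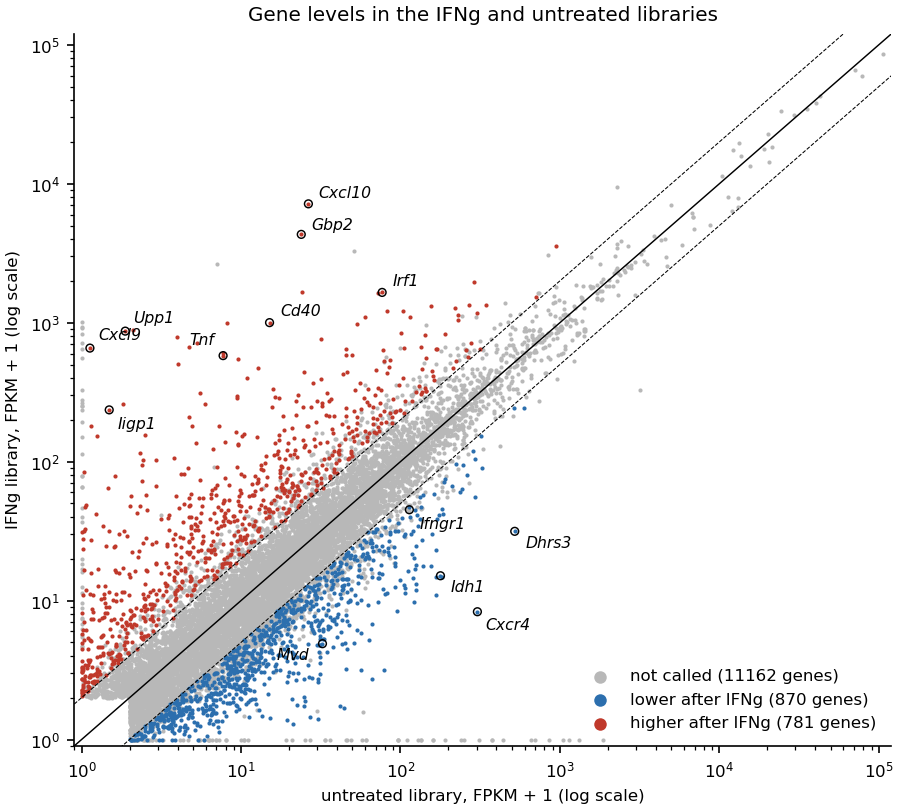
Each point is 1 of the 12813 compared genes, with FPKM + 1 in the untreated library on the x axis and in the IFNg library on the y axis, both on log scales. The solid line marks equal levels and the dashed lines 2-fold. Cxcl10 and Gbp2 reach 7163 and 4318 FPKM after IFNg, while Cxcr4 lies far below the line at 7.32 FPKM.

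The GAS letters TTCNNNGAA were found more often among genes of larger change. A gene counts here when any of its promoter windows holds the letters. The GAS letters were in 11 of 48 genes (22.9%) at least 16-fold higher and in 25 of 214 (11.7%) at 4 to 16-fold. At 2 to 4-fold they were in 30 of 309 genes (9.71%), beside 575 of 7100 genes (8.10%) not called. Among lower genes the shares were 7.56% at 2 to 4-fold and 8.65% at 4-fold or more. The ISRE core was in 12 of 48 genes at 16-fold or more, 7.94% and 8.09% in the next steps, and 3.70% of genes not called. The stricter GAS form TTCCNGGAA, each match of which is also a GAS match, was in 10.4% of genes at 16-fold or more. It was in 1.49% of genes not called. The NF-kB letters GGGA N TTTCC were in 1 of 48 genes (2.08%) at 16-fold or more and 0.935% and 0.647% in the next steps. They were in 0.493% of genes not called, beside 3 of 185 genes (1.62%) at 4-fold lower or more. Each window has 300 bases and reaches 50 bases past the start. Counted 1 window at a time, all 32851 RefSeq windows held the GAS letters in 8.30% and the stricter form in 1.15%. They held the ISRE core in 3.44% and the NF-kB letters in 0.411%. A gene with more than 1 window has more chances of a match, so these shares have another unit than those of genes. Both strands were searched in every window, and 8332 of the 10413 compared protein-coding genes had at least 1 window. Of the 76 genes at least 16-fold higher, only the 48 protein-coding ones with a window are counted. Iigp1, Gbp4 and Batf2 are among those without one. These 48 are another set than the 48 that stood at least 2-fold above every other library. Tgtp1 and Tgtp2, and the Serpina3 genes, are near copies of each other, so their matches are not separate observations. Gbp2, Gbp2b, Gbp3 and Gbp7, which all hold the ISRE core, are also related genes and lie in the same cluster. With 48 genes in the top step these shares are a description without a test.

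**Figure D2:**
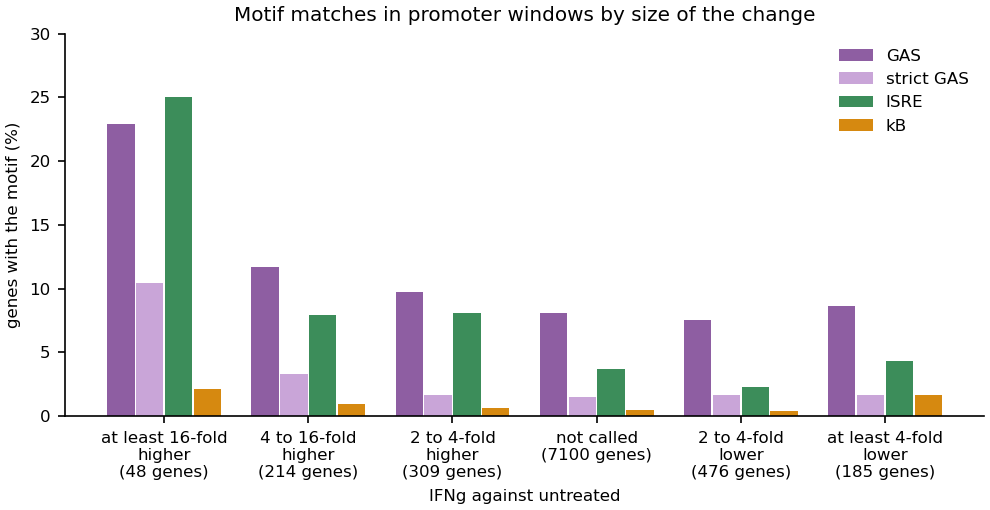
Bars give the percentage of genes that hold each motif in any of their promoter windows. The 6 groups are ordered by the size of the IFNg change, with the number of genes under each group. The GAS and ISRE bars are highest in the genes at least 16-fold higher (11 and 12 of 48), against 8.10% and 3.70% in genes not called.

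The receptor and kinase genes of the pathway were present before treatment. Ifngr1 stood at 113 FPKM (bounds 52.8 to 173) untreated and 44.1 FPKM (22.7 to 65.4) after IFNg, and at 70.5 to 126 FPKM across the other 6 libraries. The IFNg library thus held the lowest Ifngr1 value of the 8, although its bounds overlapped those of the untreated library. Here and below, values given as a pair are untreated first and after IFNg second. Ifngr2 (96.9 and 128 FPKM) and Jak1 (82.8 and 91.4 FPKM) were not called. Jak2 was higher, at 3.9 and 27.2 FPKM, but IL4 (48.6 FPKM) and CpG (41.5 FPKM) had more. Stat3 was higher (106 and 274 FPKM), whereas Stat2 (71.2 and 115 FPKM) and Irf9 (58.1 and 50.96 FPKM), its partner in type I interferon signalling, were not called.

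Inhibitors of the pathway were among its most changed genes. Socs1, which blocks the receptor's kinases, stood at 0.814 FPKM untreated, 259.6 FPKM after IFNg, 85.4 FPKM after IL4 and 0.905 to 21.2 FPKM in the remaining libraries. It was the only gene of this list to stand at least 2-fold above all other 7 libraries, at 144-fold over untreated. Socs3 (8.43 and 287 FPKM) and Cish (0.924 and 28.3 FPKM) were also higher, but Socs3 reached 739 FPKM after CpG and Cish 68.8 FPKM after IL4. The phosphatases Ptpn1, Ptpn2, Ptpn6 and Ptpn11, the inhibitor Pias1 and the low-level Socs2 were not called, with log2 changes from -0.39 to 1.23. In all, 5 of 17 signalling genes were higher and 0 lower, with a median log2 change of 0.68.

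Each list of genes below was compared with the shares over all genes, 6.1% higher and 6.79% lower. Transcription factors and coactivators of interferon responses were higher in 8 of 16 compared members, with 0 lower and a median log2 change of 1.36. Irf1 (ENSMUSG00000018899), the regulatory factor most tied to IFNg, stood at 75.8 FPKM (47.6 to 104) untreated, 1650.3 FPKM (806 to 2494) after IFNg and 22.9 to 74.96 FPKM across the other 6 libraries. No other library exceeded the untreated level, so its 21.5-fold difference from untreated was its smallest from any of the 7. Irf8, a factor of macrophage and dendritic cell development, stood at 155 and 1308 FPKM untreated and after IFNg, with 67.6 to 165 FPKM elsewhere. Batf2, which pairs with Irf1, went furthest, at 6.75 and 599 FPKM and 1.98 to 10.5 FPKM elsewhere. Irf5 (144 and 556 FPKM) and Irf7 (222 and 526 FPKM) were higher by less. The coactivators of MHC genes were both higher: Ciita, for class II, stood at 2.92 and 20.7 FPKM, and Nlrc5, for class I, at 18.4 and 119.9 FPKM. Etv6 (24.4 and 130.2 FPKM) completed the higher members and was the only one of the 8 within 2-fold of another library. Irf2, Irf3, Irf4, Batf, Batf3, Spi1, Atf3 and Etv3 were not called, with log2 changes from -0.93 to 1.47.

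**Figure D3:**
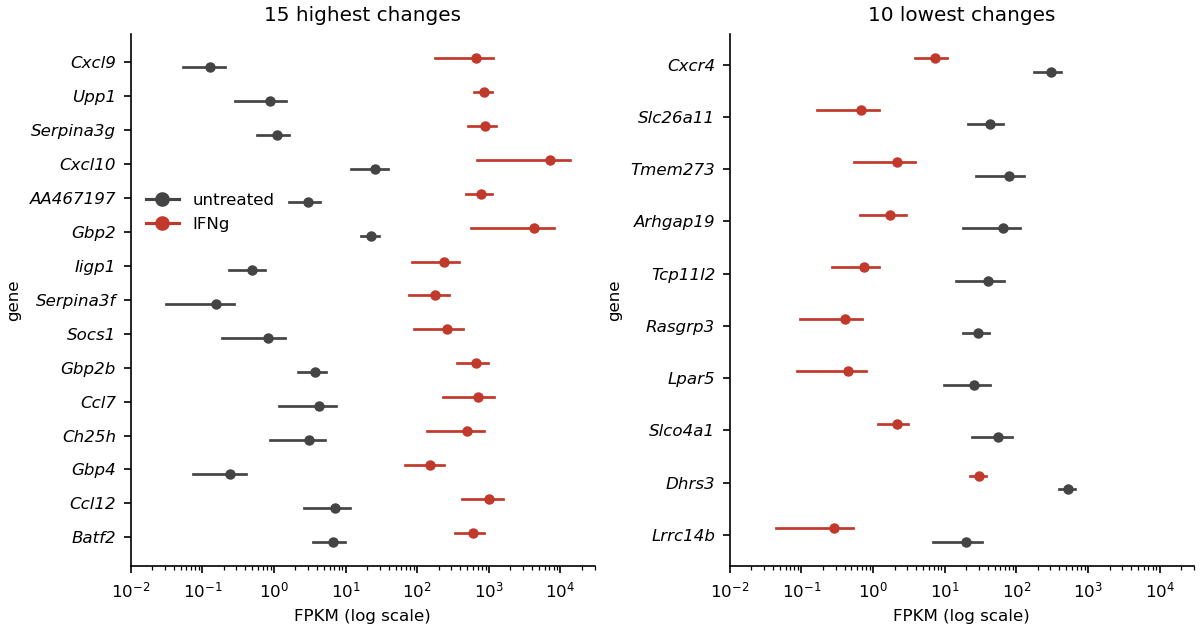
FPKM of the 15 protein-coding genes with the highest changes (left) and the 10 with the lowest (right), on log x axes. Points are the untreated (grey) and IFNg (red) libraries and bars their deposited bounds, which do not overlap for any gene shown. Cxcl9 spans 0.129 to 655 FPKM.

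Guanylate-binding proteins (GBPs) are large GTPases that assemble on vacuoles and bacteria inside cells. All 8 members in the table were higher, with a median log2 change of 5.55, and all 8 stood at least 2-fold above every other library. Gbp2 (ENSMUSG00000028270, mm9 chr3:142283566-142300972) stood at 22.9 FPKM (16.2 to 29.6) untreated, 4318 FPKM (569.8 to 8066) after IFNg and 7.82 to 71.7 FPKM elsewhere. That is 181-fold over untreated and 59.4-fold over the next library. Gbp2b (3.72 and 663 FPKM), Gbp3 (4.91 and 258 FPKM) and Gbp9 (3.23 and 80.5 FPKM) were detectable untreated. Gbp4 was close to silent before treatment, at 0.242 FPKM, and stood at 152 FPKM after IFNg. Gbp7 (1.23 and 41.6 FPKM) and Gbp11 (1.32 and 115 FPKM) were also higher, and Gbp8 was the lowest of the family after IFNg, at 0.535 and 6.31 FPKM. Family members share sequence, so the split of reads between them is uncertain, as it is for the Tgtp, Serpina3, p200, class I and Psme2 genes below. Gbp5, Gbp6 and Gbp10 had no matched identifier.

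Immunity-related GTPases (IRGs) disrupt the vacuoles of intracellular parasites and bacteria. 15 of 16 were higher, with a median log2 change of 3.41, and all 15 stood at least 2-fold above every other library. Iigp1 (ENSMUSG00000054072) stood at 0.492 FPKM (0.237 to 0.747) untreated, 235 FPKM (85.4 to 384) after IFNg and 0.121 to 0.451 FPKM elsewhere. Thus no other library exceeded its untreated level. The regulatory members Irgm1 (103 and 1205 FPKM), Irgm2 (28.6 and 192 FPKM) and Igtp (30.7 and 766 FPKM), which keep the effector GTPases off the cell's own membranes, had higher untreated levels than Iigp1. Ifi47 (58.6 and 1103 FPKM), Tgtp1 (3.96 and 179 FPKM) and Tgtp2 (9.88 and 401 FPKM) were higher too. Of the less studied members, Gm4841 stood at 0.0167 and 22.6 FPKM, Gm12185 at 0.655 and 15.2 FPKM, Gm4951 at 0.8 and 10.6 FPKM and F830016B08Rik at 0.0395 and 6.05 FPKM. Gm12250 (21.1 and 269.9 FPKM) and the very large GTPase Gvin1 (4.18 and 31.4 FPKM) were higher as well. The near copies 9930111J21Rik1 (9.92 and 28.7 FPKM) and 9930111J21Rik2 (9.52 and 27.1 FPKM) had the smallest differences of those called. Gm5431 was just short of the criterion, at 25.7 and 50.7 FPKM, a log2 change of 0.95.

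The GTPase genes lie in clusters, and so do several other gene families with high changes. In the mm9 span of the chromosome 3 Gbp cluster (chr3:142159864-142300972) with 100 kb to either side, 5 of 6 compared genes were higher, and Kyat3 at its edge was not called. In the chromosome 5 cluster (chr5:105443172-105772948) 7 of 9 were higher, including Lrrc8b (1.77 and 6.37 FPKM), which encodes a channel subunit and no GBP. The Iigp1 cluster had 6 of 7 higher, and Smim3 was not called. At the Cxcl9 locus (chr5:92750357-92843654) 4 of 7 were higher: Cxcl9, Cxcl10, Cxcl11 and the neighbouring amidase gene Naaa (23.97 and 126 FPKM), while Sdad1, Nup54 and Scarb2 were not. All 4 genes of the Ccl2 cluster (chr11:81841726-81930301) were higher, as were 11 of 13 at the p200 cluster (chr1:175398640-175961886). The 4 Ccl genes are the ones that set that span, so their count was fixed by the choice. In the class II region (chr17:34272546-34453619), taken without flanks, 3 of 11 were higher. They were Tap1, Tap2 and a gene without a symbol that shares the deposited locus of Tap1, and no class II gene there was called. In the p200 cluster, Ifi211, Ifi203 and Mndal share a deposited locus. No gene of these 7 spans was lower, beside 6.79% of all compared genes. Each span was set by named genes chosen with earlier results known, so its share of higher genes follows in part from that choice. Naaa, Lrrc8b and the other neighbours were named after their values were seen.

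Chemokine genes held the highest change of all. Cxcl9 (ENSMUSG00000029417, mm9 chr5:92750357-92757105), a ligand of Cxcr3, the chemokine receptor of activated T cells, stood at 0.129 FPKM (0.0535 to 0.205) untreated, 655 FPKM (175 to 1135) after IFNg and 0.104 to 0.736 FPKM across the other 6 libraries. It stayed below 1 FPKM in every library but that of IFNg. Cxcl10 (ENSMUSG00000034855) acts on the same receptor and had the highest level of any higher gene, at 25.5 FPKM (11.8 to 39.2) untreated and 7163 FPKM (679.7 to 13647) after IFNg, but it was also at 305 FPKM after TNFa and 215 FPKM after IL1b. Cxcl11, listed as a polymorphic pseudogene in C57BL/6, followed at 0.0299 and 82.98 FPKM. It shares a deposited locus with Cxcl10.

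Monocyte chemokines were higher too. Ccl12 stood at 7.16 and 992 FPKM and Ccl8 at 6.05 and 91.3 FPKM, both more than 2-fold above every other library. Ccl7 (4.27 and 716 FPKM) and Ccl2 (8.58 and 547 FPKM) were also higher but lay under their levels after IL4, 931 and 648 FPKM. Ccl5, which attracts T cells, stood at 21.9 and 301 FPKM, below 750.4 FPKM after CpG. The neutrophil attractants stayed low: Cxcl1 was at 0.637 and 2.09 FPKM, Cxcl2 at 1.93 and 17.2 FPKM and Cxcl3 at 0.241 and 1.33 FPKM, of which Cxcl2 was called, while MALP2 gave 507 FPKM of Cxcl2. Ccl3 (126 and 61.95 FPKM) and Ccl4 (106 and 204 FPKM) were not called and reached 2430.1 and 2720.2 FPKM after CpG. In all, 12 of 22 chemokines were higher and 0 lower (median 1.91), and 5 of the 12 stood at least 2-fold above every other library.

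Among cytokines 10 of 17 were higher and 0 lower, with a median log2 change of 1.82. Tnf stood at 6.72 FPKM (2.68 to 10.8) untreated and 578 FPKM (250.99 to 906) after IFNg, between CpG (469.9 FPKM) and MALP2 (630.0 FPKM). Il1rn, the antagonist of the IL1 receptor, stood at 23.1 and 1662 FPKM and was the highest of the 8 libraries, ahead of CpG (1334 FPKM). Il1b itself was 3.72 and 53.9 FPKM, far under 2959 FPKM after CpG. The genes that stood at least 2-fold above every other library were Il27 (0.357 and 33.2 FPKM), Il15ra (3.71 and 39.02 FPKM), the IL18 inhibitor Il18bp (9.02 and 58.6 FPKM) and Ifnb1 (0.0497 and 1.85 FPKM). The type I interferon gene Ifnb1 thus remained near the limit of 1 FPKM. Il12b was barely past it, at 0.0998 and 1.23 FPKM, against 56.5 FPKM after CpG. Il10 (1.94 and 1.37 FPKM) was not called.

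**Figure D4:**
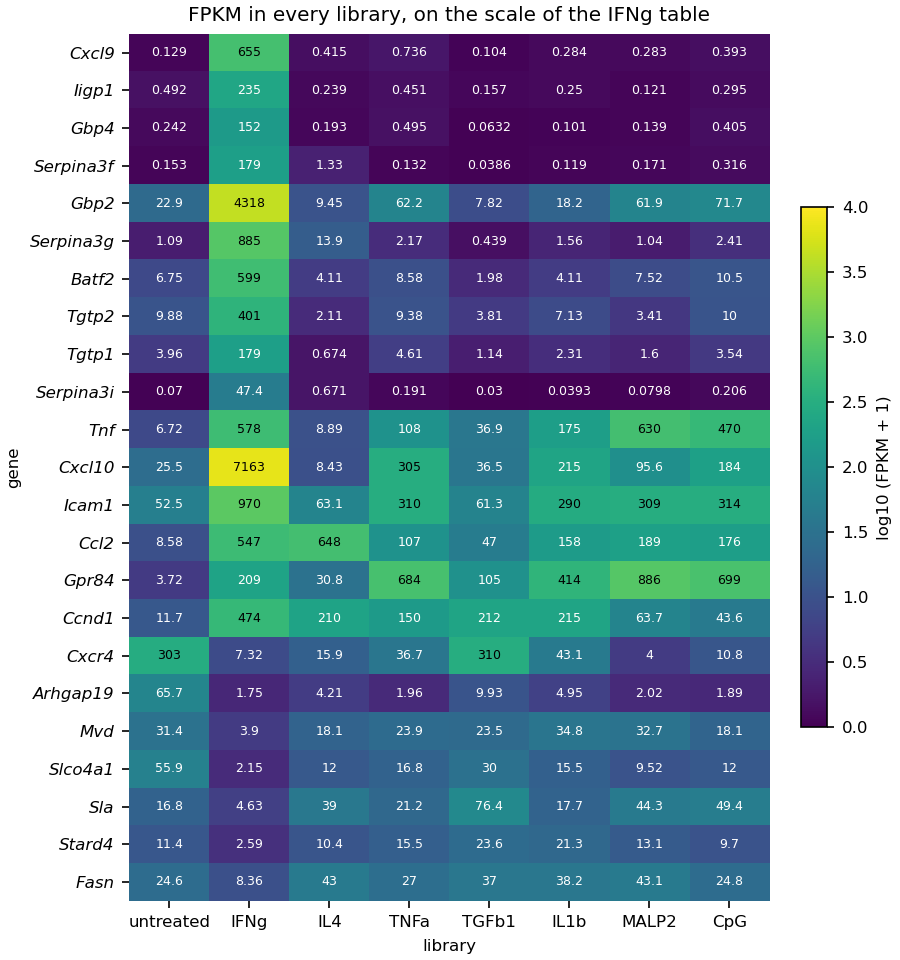
FPKM of 23 genes in all 8 libraries, joined on the scale of the IFNg table; colour is log10 of FPKM + 1 and the numbers are FPKM. The upper 10 genes, from Cxcl9 to Serpina3i, are highest in the IFNg column, Tnf and Gpr84 are higher still after MALP2, and Arhgap19 is low in every stimulated library.

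Enzymes of microbial killing and nutrient restriction were higher in 7 of 22 members, with 0 lower and a median log2 change of 0.32. Upp1, a uridine phosphorylase, stood at 0.881 FPKM (0.287 to 1.47) untreated, 869 FPKM (630.1 to 1107) after IFNg and 1.53 to 32.7 FPKM elsewhere, the second highest change of all. Nos2, which makes nitric oxide from arginine, stood at 0.0509 and 46.01 FPKM, close to MALP2 (39.4 FPKM) and below CpG (116 FPKM). Its arginine supply genes Ass1 (1.41 and 24.8 FPKM) and Slc7a2 (0.725 and 29.2 FPKM) were higher, and so was the competing arginase Arg1 (0.0324 and 4.23 FPKM), which stood at 1667 FPKM after IL4. Samhd1, which depletes nucleotides, stood at 290.2 and 1975 FPKM, above 74.5 to 121 FPKM elsewhere, and the tryptophanyl-tRNA synthetase gene Wars at 34.5 and 213 FPKM. Ido1, the tryptophan-degrading enzyme known from human cells, remained at 0.23 FPKM. The NADPH oxidase genes Cybb, Cyba, Ncf1 and Ncf4 were not called, with log2 changes from -0.20 to 0.35. Acod1, which makes itaconate, was 6.05 FPKM (2.21 to 9.9) and 2626 FPKM with bounds from 0, and was not called.

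Antiviral genes known from type I interferon were higher in 10 of 39 members, with 0 lower and a median log2 change of 1.13. By fold alone 23 of the 39 passed, so 13 had overlapping bounds. The 10 called genes all stood at least 2-fold above every other library. Mx1 stood at 17.5 and 169 FPKM, and Oasl1 at 16.3 and 155 FPKM. Zbp1, a sensor of Z-form nucleic acid, stood at 69.2 and 456 FPKM, and the RNA helicase gene Dhx58 at 60.8 and 267 FPKM. Isg15, the ubiquitin-like modifier, stood at 105 FPKM untreated and 657 FPKM after IFNg. Members that are abundant without treatment differed less: Ifitm3 was 2221 and 3032 FPKM and Bst2 457 and 607 FPKM. Of 25 genes for ISG15 conjugation, TRIM ligases and PARPs, 6 were higher and 0 lower (median 1.44), and 15 were at least 2-fold higher by fold alone. Among the 6 the next in size after Isg15 were Herc6 (6.53 and 33.7 FPKM) and Parp10 (24.2 and 83.7 FPKM). The p200 genes, which sense DNA, and the Schlafen genes, which restrict translation, were higher in 14 of 18 members (median 2.05), and all 14 stood at least 2-fold above every other library. Among them Ifi205 stood at 30.6 and 394 FPKM, Ifi211 at 42.5 and 424 FPKM, Ifi203 at 19.9 and 173 FPKM and Slfn1 at 3.89 and 38.9 FPKM. The inflammasome sensor Aim2 was not called (9.55 and 18.8 FPKM).

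**Figure D5:**
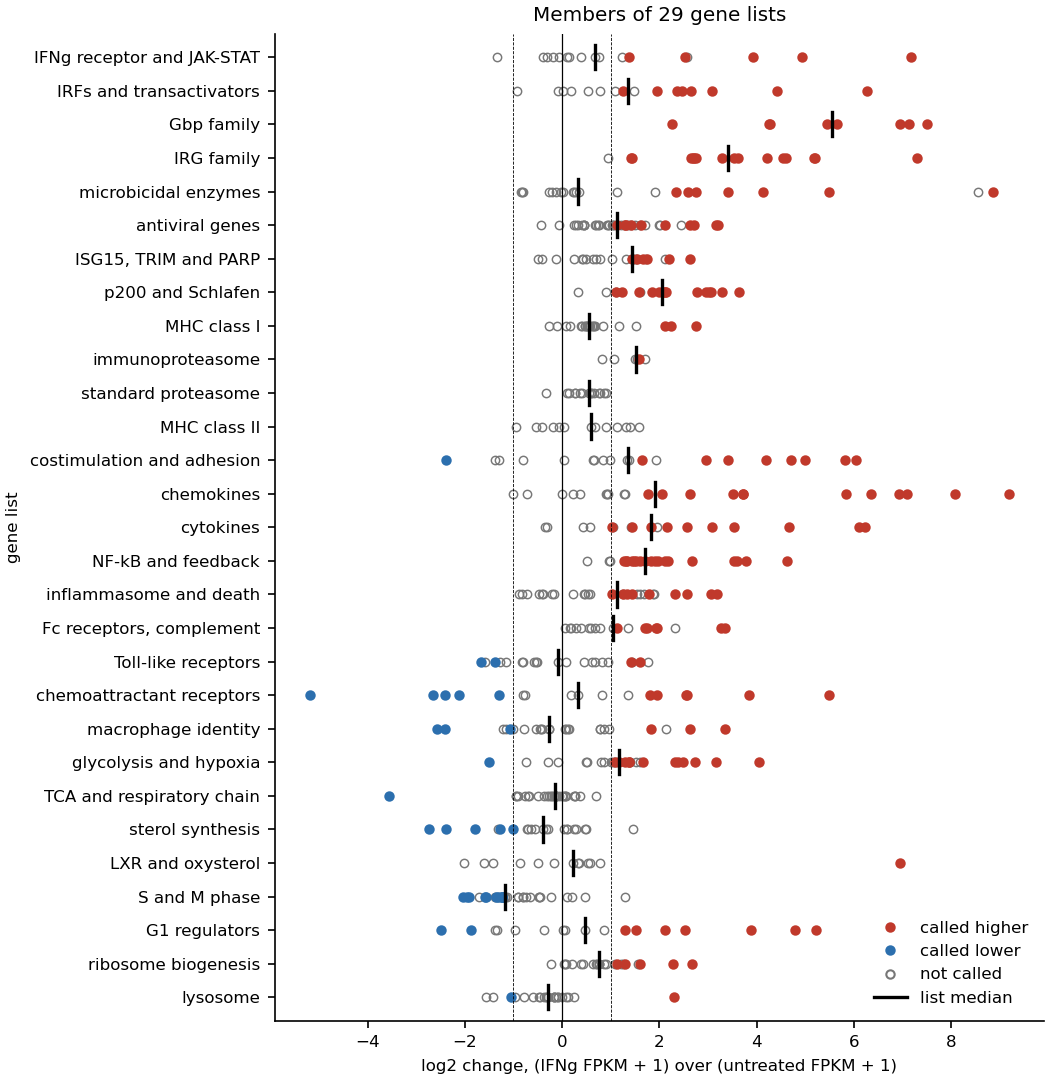
Each point is 1 compared member of 29 gene lists, placed by its log2 change; filled points were called higher (red) or lower (blue), open points were not called, and the black bar is the list median. Every Gbp gene lies to the right of the 2-fold line, while S and M phase genes lie mostly to the left with a median of -1.17.

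Antigen presentation moved unevenly at 4 h. In the class I list 3 of 24 were higher and 0 lower (median 0.56), and these load peptides: Tap1 stood at 77.6 FPKM (50.2 to 105) and 531 FPKM (355 to 708), Tap2 at 42.04 and 184 FPKM, and Tapbpl at 13.4 and 66.9 FPKM. The class I chains were already abundant and were not called, such as H2-K1 (984 and 1446 FPKM), H2-D1 (1795 and 2647 FPKM) and B2m (4951 and 7011 FPKM). The immunoproteasome cuts peptides for class I. Psme2 was called (36.2 and 111 FPKM), and 5 of 6 members passed 2-fold alone, including Psmb8 (144 and 409.8 FPKM), Psmb10 (83.1 and 274 FPKM), Psme2b (227 and 658 FPKM) and the assembly factor Pomp (133 and 279 FPKM). Psme1 stood at 179 and 318 FPKM, and Psmb9 had no matched identifier. The median was 1.52 for the immunoproteasome and 0.55 for 15 subunits of the standard particle, of which 0 were called.

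For class II, 0 of 13 compared members were called in either direction (median 0.58), although the coactivator Ciita was higher. By fold alone 4 passed: H2-Aa (69.9 and 154 FPKM), H2-Ab1 (41.5 and 111 FPKM), H2-DMa (34.2 and 105 FPKM) and the invariant chain Cd74 (190.3 and 473 FPKM). H2-Ab1 was also at 109.9 FPKM after CpG. H2-Eb1 (57.6 and 109 FPKM), H2-DMb1 (32.6 and 52.6 FPKM), H2-DMb2 (2.49 and 4.23 FPKM), H2-Ob (1.04 and 0.79 FPKM), Rfx5 (9.85 and 10.2 FPKM), Rfxank (5.3 and 2.25 FPKM) and Rfxap (6.47 and 4.15 FPKM) lay within 2-fold. The peptide-processing enzymes Ctss (2638 and 2538 FPKM) and Lgmn (1378 and 1036 FPKM) did too. H2-Oa and H2-Eb2 stayed below 1 FPKM, and Ifi30 failed quantification in the IFNg library.

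Costimulatory and adhesion molecules were higher in 8 of 20 members and lower in 1 (median 1.36). Of the 8 higher members, 6 stood at least 2-fold above every other library and 2 lay below their level in another library. Cd40, the receptor through which T cells license macrophages, stood at 14.1 FPKM (9.12 to 19.1) untreated, 999.9 FPKM (704 to 1296) after IFNg and 8.27 to 407 FPKM elsewhere. Cd274, the checkpoint ligand PD-L1, stood at 8.43 and 298 FPKM, and Cd86 at 4.19 and 134 FPKM, whereas Cd80 was not called (2.44 and 4.43 FPKM). Slamf8 (4.52 and 312 FPKM) and the adhesion molecule Icam1 (52.5 and 969.9 FPKM) were higher, as were Vcam1 (0.496 and 10.6 FPKM), the checkpoint ligand gene Pdcd1lg2 (0.105 and 2.46 FPKM) and the death ligand gene Tnfsf10 (1.08 and 21.2 FPKM). The checkpoint gene Vsir was the lower one, at 292 FPKM untreated and 54.7 FPKM after IFNg, but it was at 34.7 to 82.6 FPKM across the other 6 libraries as well.

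NF-kB subunits, inhibitors and feedback genes were higher in 18 of 22 members, with 0 lower and a median log2 change of 1.71. Tnfaip3, which shuts off NF-kB signalling, stood at 6.28 FPKM (3.33 to 9.24) untreated and 179 FPKM (122 to 235) after IFNg, and reached 220.1 FPKM after CpG. The inhibitor Nfkbie stood at 8.63 and 131 FPKM, Tnip3 at 3.83 and 57.1 FPKM, the mitochondrial dismutase Sod2 at 17.4 and 211 FPKM and Nfkbia at 50.5 and 326 FPKM. None of the 18 stood 2-fold above every other library, and 15 of them were exceeded by at least 1 other library. The GBP, IRG and p200 lists stand beside this with all of their called members 2-fold above every other library. Beside Cxcl9, Iigp1, Gbp4, Gbp2, Batf2, Tgtp1 and Tgtp2, the 10 genes furthest above every other library included the protease inhibitors Serpina3f (0.153 and 179 FPKM), Serpina3g (1.09 and 885 FPKM) and Serpina3i (0.07 and 47.4 FPKM).

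Cell death and inflammasome genes were higher in 9 of 28 members, with 0 lower and a median of 1.14. Nlrp3, an inflammasome sensor, stood at 33.5 and 310.5 FPKM, under 433 FPKM after MALP2. Mlkl, the pore-forming effector of necroptosis, stood at 16.2 and 142 FPKM with 11.2 to 20.4 FPKM elsewhere, and Casp4, the sensor of cytosolic lipopolysaccharide, at 11.3 and 60.4 FPKM. These were the 2 members that stood at least 2-fold above every other library. The death receptor gene Fas (6.51 and 43.8 FPKM) and Cflar, its inhibitor (22.7 and 80.3 FPKM), were both higher.

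Surface receptors changed in both directions. Of 19 Fc receptor and complement genes 7 were higher and 0 lower (median 1.04). Fcgr4 stood at 113 FPKM (39.7 to 187) untreated, 1099.9 FPKM (271 to 1929) after IFNg and 39.4 to 95.9 FPKM elsewhere, so the untreated library was its second highest. The high-affinity IgG receptor Fcgr1 stood at 302 and 1163 FPKM. Complement factor B (Cfb) was 3.72 and 46.9 FPKM, and the C1 protease gene C1ra 1.92 and 10.1 FPKM. Fcgr3 failed quantification in the IFNg library.

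Among 17 chemoattractant receptors 6 were higher and 5 lower (median 0.33). Cxcr4 (ENSMUSG00000045382, mm9 chr1:130484776-130488870), the receptor of Cxcl12, had the lowest change of all genes, at 303 FPKM (179 to 426) untreated and 7.32 FPKM (3.86 to 10.8) after IFNg. It was 309.8 FPKM after TGFb1 and 4 to 43.1 FPKM in the remaining 5 libraries, so the IFNg value lay within the range of other stimuli. S1pr1, a receptor of sphingosine 1-phosphate, stood at 32.2 and 4.26 FPKM with 9.53 to 91.7 FPKM elsewhere and was the only receptor of this list at least 2-fold below every other library. Cx3cr1 (18.5 and 2.68 FPKM), Cxcr3 (5.84 and 0.565 FPKM) and Gpr34 (2.82 and 0.562 FPKM) were lower. The fatty acid receptor Gpr84 (3.72 and 209 FPKM) led the higher ones, under 886 FPKM after MALP2, followed by Ccr1 (2.91 and 55.5 FPKM), Ccrl2 (10.8 and 68.5 FPKM) and the orphan receptor Gpr18 (0.411 and 7.21 FPKM). In the Toll-like receptor list 2 of 21 were higher, Irak2 (19.1 and 60.2 FPKM) and Tlr3 (2.89 and 9.36 FPKM), and 2 were lower, the RNA sensors Tlr7 (62.9 and 19.1 FPKM) and Tlr8 (39.9 and 14.8 FPKM).

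Genes of macrophage identity were higher in 3 and lower in 3 of 25 members (median -0.26, which was 0.06 at a floor of 5 FPKM and with no floor). The scavenger receptors Msr1 (16.3 and 106 FPKM) and Cd36 (17.3 and 63.6 FPKM) and the regulator Id3 (3.79 and 47.8 FPKM) were higher, each below its level in at least 1 other library. The lower ones were Pparg (30.2 and 4.26 FPKM), a lipid-sensing nuclear receptor, Cx3cr1 and the haptoglobin receptor Cd163 (1.7 and 0.29 FPKM). Of 21 genes known from IL4 activation 8 were higher and 1, Pparg, was lower (median 1.11). Il4ra, the IL4 receptor chain, stood at 100.3 and 848 FPKM, near 758 FPKM after CpG. Cish, Myc (3.22 and 23.5 FPKM), the lectin Clec7a (20.7 and 121 FPKM) and Arg1 were also higher, and all 4 were higher still after IL4. Tgm2, a transglutaminase, was 50.1 FPKM and 3295 FPKM with bounds from 0 and was not called.

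Metabolic genes split by pathway. Of 27 glycolysis and hypoxia genes 12 were higher and 1 was lower (median 1.16). The glucose transporter Slc2a1 stood at 16.3 and 284 FPKM, the lactate exporter Slc16a3 at 26.5 and 245 FPKM, hexokinase 2 (Hk2) at 12.4 and 88.3 FPKM and Hif1a, the factor of the hypoxia response, at 11.8 and 70.4 FPKM. Each of these 4 was exceeded by another library, whereas Hk3 (134 and 670.4 FPKM) and Pfkp (81.7 and 433 FPKM) stood at least 2-fold above all. Slc2a3, another glucose transporter, was the lower one (12.8 and 3.85 FPKM). In the TCA cycle and respiratory chain 29 of 30 genes were not called (median -0.14). The exception was Idh1 (ENSMUSG00000025950), the cytosolic isocitrate dehydrogenase, at 177 FPKM (112 to 243) untreated, 14.1 FPKM (8.88 to 19.3) after IFNg and 37.8 to 85.4 FPKM elsewhere, the lowest value of the 8 libraries by 2.57-fold.

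Sterol synthesis genes were lower in 5 of 21 members, with 0 higher and a median of -0.39. Mvd, a decarboxylase of the mevalonate pathway, stood at 31.4 FPKM (11.7 to 51.2) untreated, 3.9 FPKM (1.1 to 6.69) after IFNg and 18.1 to 34.8 FPKM elsewhere. Dhcr7 (31.8 and 5.27 FPKM), the sterol carrier Stard4 (11.4 and 2.59 FPKM), Lss (25.3 and 9.81 FPKM) and Mvk (15.9 and 7.39 FPKM) were lower too, and the IFNg value of each of the 5 was the lowest of the 8 libraries. The list median against the median of the other 6 stimulated libraries was -1.24. Fatty acid synthase (Fasn) stood at 24.6 and 8.36 FPKM with 24.8 to 43.1 FPKM elsewhere. Ch25h makes 25-hydroxycholesterol, an oxysterol known to hold back sterol synthesis. It stood at 3.05 FPKM (0.893 to 5.21) untreated, 502 FPKM (138 to 867) after IFNg and 32.2 to 242 FPKM elsewhere, and was the single member called among 13 LXR targets and oxysterol genes (median 0.22).

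S and M phase genes were lower in 10 of 31 members, with 0 higher and a median of -1.17. Examples are Ccnb2 (14.9 and 2.88 FPKM), which drives mitosis, Bub1b (12.8 and 2.53 FPKM), a checkpoint kinase, Aurkb (9.57 and 1.79 FPKM) and the transcription factor E2f1 (20.3 and 6.09 FPKM). Of the 10, only 1, Cdk1 (24.8 and 8.99 FPKM), was also 2-fold below the median of the other 6 stimulated libraries, in which Ccnb2, for example, stood at 3.21 to 7.92 FPKM. Of 17 regulators of the G1 phase 7 were higher and 2 lower (median 0.47). Ccnd1 stood at 11.7 and 474 FPKM and Ccnd2 at 2.82 and 105 FPKM, both cyclins that open the cell cycle, and the cell cycle inhibitor Cdkn1a at 81.5 FPKM untreated and 1209 FPKM after IFNg, with 96.8 to 395 FPKM elsewhere. All 3 stood at least 2-fold above every other library. Rbl2, linked to quiescence (16.6 and 2.14 FPKM), and the inhibitor Cdkn2c (17.1 and 3.95 FPKM) were lower. Of 24 ribosome biogenesis genes 5 were higher and 0 lower (median 0.76), led by Noc4l (12.7 and 86.5 FPKM).

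In the list of immediate early and heat-shock genes 6 of 20 were higher, among them Junb (31.03 and 250.2 FPKM) and Fos (9.43 and 78.3 FPKM), and the stress factor Ddit3 was lower (58.8 and 18.8 FPKM). The lists of lysosome, iron, redox and reference genes held few called genes. Of 23 lysosome genes 1 was higher, the protease Ctsc (229 and 1133 FPKM), and 1 lower, the proton pump subunit Atp6v1a (318 and 152 FPKM). Among 13 iron and heme genes 0 were higher and 2 lower, Cd163 and the iron exporter Slc40a1 (28.9 and 3.78 FPKM), which was at 1.05 to 2.38 FPKM across the other 6 libraries. Of 17 NRF2 and redox genes 2 were higher, Sod2 and Txnrd1 (69.97 and 202 FPKM). None of 18 genes commonly used as references was called. By fold alone 4 of them were at least 2-fold higher, such as Actb (2274 and 9392 FPKM) and Hprt (66.2 and 169 FPKM), and 2 at least 2-fold lower, and with the authors' deposited calls in place of the bounds 3 were higher and 1 lower.

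Other leading genes belong to none of these lists or stand out by level. AA467197, which encodes a small mitochondrial protein, stood at 2.99 FPKM (1.6 to 4.39) untreated, 784 FPKM (478 to 1091) after IFNg and 30.3 to 95.5 FPKM elsewhere. Among higher genes of the highest level after IFNg were the cytoskeletal genes Vim (949.6 and 3542 FPKM), Zyx (71.8 and 1627 FPKM) and Actg1 (341 and 1344 FPKM), the chaperone Hspa8 (705 and 1530.2 FPKM), the peroxidase Prdx5 (266 and 1337 FPKM) and the metal-binding protein Mt1 (219.7 and 1267 FPKM). Zyx was at 74.8 to 158 FPKM across the other 6 libraries, while Actg1 was at 805 to 1304 FPKM there and Vim at 1313 to 2507 FPKM. Vim is also abundant in stromal cells, whose marker sum was 117 FPKM untreated and 258 FPKM after IFNg.

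The 10 lowest changes were Cxcr4, Slc26a11, Tmem273, Arhgap19, Tcp11l2, Rasgrp3, Lpar5, Slco4a1, Dhrs3 and Lrrc14b. Rasgrp3, an activator of Ras proteins, stood at 29.5 FPKM untreated and 0.404 FPKM after IFNg, with 0.385 to 7.57 FPKM elsewhere. Lrrc14b was 20.1 FPKM untreated against 0.284 FPKM after IFNg, and 0.181 to 0.415 FPKM elsewhere, so that the untreated library alone was high. Slc26a11 (43.4 and 0.69 FPKM, 0.659 to 6.56 FPKM elsewhere), Tcp11l2 (40.8 and 0.748 FPKM, 1.28 to 3.4 elsewhere), Arhgap19 (65.7 and 1.75 FPKM, 1.89 to 9.93 elsewhere) and the lysophosphatidic acid receptor Lpar5 (25.98 and 0.445 FPKM, 1.11 to 5.27 elsewhere) were likewise far below the untreated level in the other 6 libraries. Of the 10, these stood at least 2-fold below all 7 others in the IFNg library: the anion transporter Slco4a1 (55.9 and 2.15 FPKM, 9.52 to 29.98 elsewhere), Tmem273 (77.8 and 2.18 FPKM, 6.57 to 100.1 elsewhere) and the retinaldehyde reductase Dhrs3 (519.8 and 30.5 FPKM, 72.3 to 465 elsewhere). Genes 2-fold below every other library numbered 21 of 12704 (0.165%). Mvd, Slco4a1, the signalling adaptor Sla (16.8 and 4.63 FPKM, 17.7 to 76.4 elsewhere), Stard4 and Fasn were the lowest of them, and Idh1, S1pr1 and Blnk were among the rest.

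Markers of other cell types were at low levels, with exceptions. Of 13 B and plasma cell genes in the table, Ighm (117 and 20.5 FPKM), Blnk (98.3 and 13.1 FPKM) and Cd79b (7.38 and 1.98 FPKM) were lower, and the sum of all 13 was 227 FPKM untreated against 38.2 FPKM after IFNg, and 58.4 to 70.3 FPKM elsewhere, while the defining genes Cd79a (0.0329 and 0.0891 FPKM) and Ms4a1 (0.0147 and 0.045 FPKM) were near 0. None of 12 compared neutrophil genes was called, and the summed level of all 15 was 296 FPKM untreated and 434 FPKM after IFNg, just above the 185 to 409 FPKM of the other 6. S100a8 (113 and 186 FPKM), S100a9 (99.5 and 152 FPKM), Ngp (23.4 and 39.5 FPKM) and Csf3r (38.8 and 34.3 FPKM) made up most of it. The T cell kinase gene Lck was higher (0.855 and 10.6 FPKM, 0.349 to 1.43 elsewhere) although Cd3d, Cd3e and Cd3g stayed below 0.1 FPKM in both libraries. The sum of the 20 T and NK cell genes was 33.9 FPKM untreated against 45.3 FPKM after IFNg, and 14.2 to 39.5 FPKM elsewhere. Most of it was Il7r (24.3 and 23.6 FPKM) and Cd4 (8.14 and 10.3 FPKM). After IFNg, Lck at 10.6 FPKM held more of the sum than Cd4. Dendritic cell markers Itgax (1.98 and 9.04 FPKM) and Clec9a (0.13 and 1.81 FPKM) were higher in a list that summed to 463 FPKM untreated and 628 FPKM after IFNg, with 259 to 409 FPKM elsewhere, nearly all of it Bst2, while Flt3 (0.159 and 0.0952 FPKM) and Zbtb46 (0.0851 and 0.299 FPKM) stayed near 0. Of the 12 mast cell, basophil and megakaryocyte genes, whose sum was 46.4 FPKM untreated against 28.0 FPKM after IFNg, and 42.6 to 148 FPKM elsewhere, Kit was lower (1.95 and 0.398 FPKM) and Pf4 (43.3 and 25.8 FPKM) made up most. The 7 endothelial genes summed to 41.3 FPKM untreated and 53.8 FPKM after IFNg, with 22.99 to 33.4 FPKM elsewhere, mainly from Vwf (34.9 and 47.5 FPKM), and none was called. None of 11 erythroid genes reached 1 FPKM. The part of other cells in the results above was not tested beyond these values.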

How the data were processed

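Poly(A) RNA of 8 mouse macrophage cultures was sequenced, 1 library per group. Per the submitters' processing notes the authors used TopHat 1.3.1, Cufflinks 1.2.1, Cuffdiff 1.2.1 and the mm9 build. The deposited FPKM values carry lower and upper bounds, whose confidence level is not given in the sources used here. The authors' deposited p-values and q-values served only to check calls. FPKM was compared as log2 of (FPKM + 1) with Python 3.11.15, numpy 2.4.6 and pandas 2.3.3. The other 6 libraries were put on the scale of the IFNg table by their untreated column, with 1 factor per table from 1.04 to 1.10. The reference tables gave symbols for 31840 of 36806 identifiers. Promoters are RefSeq's in GRCm38.p6, and gene positions are the deposited mm9 ones.

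The members and the 34 gene lists and 10 marker lists were chosen with earlier results of these data known. Named by rule were, among protein-coding genes, the 15 highest and 10 lowest changes, the 10 furthest above and 5 furthest below all other libraries, the 15 higher genes of highest level, and up to 5 called members of each list. Lists named in full are the signalling, interferon regulatory factor, GBP, IRG, immunoproteasome and class II lists, apart from members not reported here. Other genes were named after their values were seen, among them Cxcl11, Gbp11 and Gm12250, which are not listed as protein-coding. Psap, Ctsd, Ctsb, Fdft1 and Ifitm10 were left out, like Lyz2, as listed at 0 in the untreated library with too many reads. Alternatives were another pseudocount, floor, fold, reference, library scaling and centring, fold alone, the authors' calls and protein-coding genes only.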

Additional observations from a re-analysis of the deposited data

How the results depend on the processing

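Without the demand for separate bounds, 1373 genes were at least 2-fold higher and 1623 lower, against 781 and 870 with it. At 4-fold the counts were 378 and 244, and higher genes made up 60.8% of calls against 47.3%. With the added demand, chosen after seeing the data, of 2-fold from the median of the other 6 stimulated libraries they were 432 and 116. With a pseudocount of 0.1 FPKM, 70 genes instead of 21 were 2-fold below all other 7 libraries. Other settings kept the counts of higher and lower genes within 1.5 times. They were 812 and 984 with that pseudocount, 667 and 678 at a floor of 5 FPKM, and 804 and 800 after centring on the median gene. They were 969 and 1073 with the authors' deposited calls in place of the bounds, and 718 and 831 among protein-coding genes. With no floor they had to stay at 781 and 870, since genes below 1 FPKM in both libraries cannot reach 2-fold in FPKM + 1. The pseudocount cannot change the direction of a gene, and centring moved log2 changes by less than the 1 that a call requires. That no called gene changed direction under these settings was thus fixed in advance. The median of the macrophage identity list, -0.26, was 0.06 at the higher floor and with no floor, and that of the Toll-like receptor list, -0.09, was 0 after centring. Of 102 counts and medians of lists, 24 moved by fold alone and at most 6 under each other setting, by over 1.5 times or to or from 0 for a count and by 0.5 or more for a median. Of 718 gene values, centring moved 0 and the smaller pseudocount 79 by more than 1 SD, taken from the bounds. Lists with at least 25% of members higher numbered 18, and 18 to 22 under the other settings. No paired analysis was possible because each group held 1 library. Bounds spanned a median of 58.0% of the FPKM to either side untreated and 59.8% after IFNg at 1 FPKM or more, which limits calls of smaller changes.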
